A study of Mus musculus with 10 samples.

Results

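The DNA replication and mitosis genes are 40 protein-coding genes of the cell division cycle, taken by gene symbol from the 54532 genes of the deposited table. They were split by the step at which they act into 13 S-phase genes, 9 regulators of G1 and of the G1/S step, 13 mitotic genes and 5 inhibitors of cyclin-dependent kinases. Their RNA was compared between GUCY2Chi and GUCY2Cmed epithelial cells, which were sorted for high and for medium GFP fluorescence from the small intestine of 5 litter-matched Gucy2c-GFP mice. The mice were of the CD1/ICR stock and were 10 weeks old, and 20000 cells of each kind were taken from each mouse. Both kinds of cell carry the GFP transgene of the GENSAT project, which reports activity of the Gucy2c promoter, so fluorescence reports the promoter and not the protein. Live single cells were sorted by fluorescence alone, without an antibody against a surface marker. This gave 10 libraries, 1 for each mouse and kind of cell, and the mice are called here by their numbers in the labels, 2, 7, 12, 14 and 15.

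In the small intestine, stem cells and their transit-amplifying daughters divide in the crypts, and most enterocytes, goblet cells and enteroendocrine cells leave the division cycle as they mature. In G1, D-type cyclins with CDK4 or CDK6, and then cyclin E with CDK2, inactivate the retinoblastoma protein and free E2F factors, which switch on the genes of DNA replication. Genes of mitosis are switched on later, largely through a promoter element called the cell cycle genes homology region (CHR), which is held silent in resting cells by the DREAM complex and used in dividing cells by MuvB, B-Myb and FOXM1. Inhibitors of the CIP/KIP family (Cdkn1a, Cdkn1b and Cdkn1c) and of the INK4 family (Cdkn2c and Cdkn2d) hold the kinases back, and they often rise when a cell leaves the cycle.

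Each library had between 10903958 and 15307932 reads counted on genes. A gene entered the test when it had more than 0.5 cpm, the read count scaled to the size of its library, in at least 3 libraries, which held for 15703 genes and for all 40 members. Levels are given as cpm after TMM scaling, and differences as log2 fold changes of GUCY2Chi over GUCY2Cmed cells from edgeR's quasi-likelihood test, with a Benjamini-Hochberg adjusted p under 0.01 as the threshold. At this threshold 8.79% of the genes tested were lower and 13.9% were higher in GUCY2Chi cells, and the median log2 fold change of all genes was 0.09. The labels name high and medium GUCY2C and no cell type, so markers of cell types were read from the levels. Of 18 enteroendocrine genes, 18 were higher in GUCY2Chi cells. Their summed level was between 42409.5 and 169728 cpm in GUCY2Chi and between 129 and 440.5 cpm in GUCY2Cmed cells. Of 14 enterocyte genes, all were below 0 on the log2 scale and 1, Anpep, passed the threshold, and their summed level was 51451 to 70938 cpm in GUCY2Cmed cells. That sum was 2779.9 to 3826 cpm in the GUCY2Chi libraries of mice 2, 7 and 14 but 28655 and 29541 cpm in those of mice 12 and 15. In such bulk samples, fewer dividing cells and less of each RNA per cell cannot be told apart.

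Of the 40 members, 23 were lower and 3 were higher in GUCY2Chi cells, and 14 did not pass. Of the 40, 35 lay below 0 on the log2 scale, against 45.4% of all genes tested. The 23 comprised 10 S-phase genes, 12 mitotic genes and the cyclin gene Ccnd1, and the 3 were the inhibitor genes Cdkn1c, Cdkn1a and Cdkn2d. All 26 S-phase and mitotic genes were lower in GUCY2Chi cells in 5 of 5 mice, which held for 23.1% of all genes tested. In 20 of these 26 every GUCY2Chi library lay below every GUCY2Cmed library, against 13.2% of all genes tested.

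**Figure D1:**
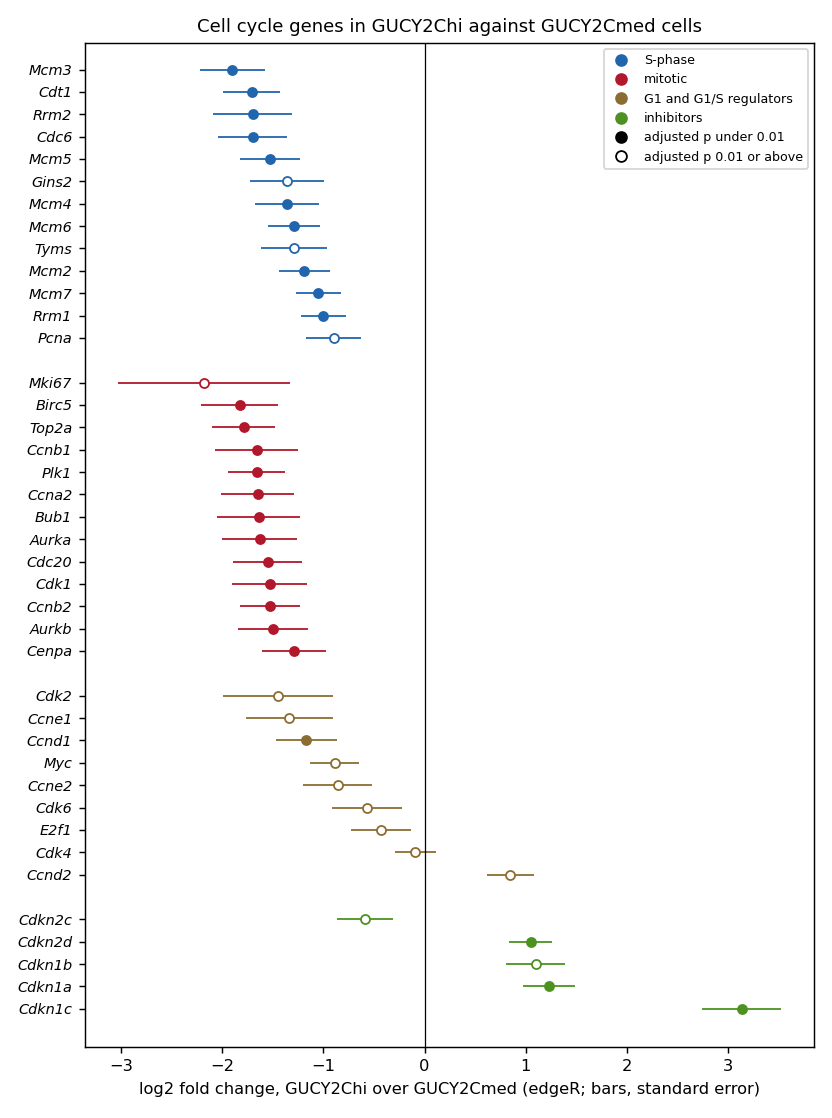
Log2 fold change of each of the 40 genes in GUCY2Chi over GUCY2Cmed cells from edgeR (horizontal axis), by role, with bars for the standard error and filled points for an adjusted p under 0.01 (5 mice). The S-phase genes lie between -1.90 and -0.90 and the mitotic genes between -2.18 and -1.29, while Cdkn1c stands at 3.14.

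The promoter sequences of S-phase and mitotic genes differed in the words they held. RefSeq promoters on GRCm38.p6, from 250 bases before to 50 bases after a start, were matched for 31 of the 40 genes; Cdkn1c, Ccnd1, Ccnd2, Ccne2, Myc, Ccna2, Aurkb, Mcm4 and Gins2 had no entry. Both strands were searched for the E2F word, which is TTNNCGC with the letters at N read as GG, CC, CG or GC. They were also searched for the CHR word TTTGAA and for the CCAAT word, which is the site of NF-Y. Words of the same kind may overlap, as in TTGGCGCGAA, which holds an E2F word on each strand, and a match is a description of the letters and not of a bound factor. Upstream stretches of 3 S-phase genes are shown because they carry the E2F word, here in capitals.

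Mcm6 (chr1:128359736-128359855, minus strand): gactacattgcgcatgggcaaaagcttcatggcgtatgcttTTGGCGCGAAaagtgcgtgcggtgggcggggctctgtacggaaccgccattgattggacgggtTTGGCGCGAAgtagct
Mcm5 (chr8:75109329-75109448, plus strand): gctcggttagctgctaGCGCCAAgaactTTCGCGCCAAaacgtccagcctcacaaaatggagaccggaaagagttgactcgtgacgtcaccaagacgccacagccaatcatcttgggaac
Rrm1 (chr7:102441565-102441684, plus strand): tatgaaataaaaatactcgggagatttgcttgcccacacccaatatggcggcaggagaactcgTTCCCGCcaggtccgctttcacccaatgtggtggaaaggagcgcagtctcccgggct

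The stretches of 4 mitotic genes are shown because they carry the CHR word and CCAAT words, both in capitals. In those of Cdk1, Top2a and Cdc20 a CHR word lies close to the start.

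Cdk1 (chr10:69352922-69353042, minus strand): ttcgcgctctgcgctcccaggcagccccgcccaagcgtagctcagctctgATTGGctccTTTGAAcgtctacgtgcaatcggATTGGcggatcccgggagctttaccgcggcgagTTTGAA
Top2a (chr11:99024200-99024319, minus strand): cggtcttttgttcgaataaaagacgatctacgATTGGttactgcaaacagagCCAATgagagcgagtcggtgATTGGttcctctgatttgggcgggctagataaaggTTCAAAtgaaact
Mki67 (chr7:135716440-135716559, minus strand): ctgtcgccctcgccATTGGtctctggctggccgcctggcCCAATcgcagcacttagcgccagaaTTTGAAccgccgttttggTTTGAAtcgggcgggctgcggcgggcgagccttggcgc
Cdc20 (chr4:118437345-118437473, minus strand): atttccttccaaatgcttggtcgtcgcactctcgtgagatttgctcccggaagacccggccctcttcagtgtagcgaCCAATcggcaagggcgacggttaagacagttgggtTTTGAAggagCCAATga

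The stretch of Cdkn1a, whose RNA was higher in GUCY2Chi cells, is shown because neither of its 2 RefSeq promoters holds any of the 3 words. It is the exception among the 4 inhibitor genes with a promoter, since Cdkn1b, Cdkn2c and Cdkn2d each had a CCAAT word.

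Cdkn1a (chr17:29090849-29090968, plus strand): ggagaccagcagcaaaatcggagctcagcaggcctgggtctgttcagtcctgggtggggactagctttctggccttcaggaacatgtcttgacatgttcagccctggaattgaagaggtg

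Among the S-phase genes with a promoter, 8 of 11 (72.7%) held the E2F word and 1, Mcm2, held the CHR word. Among the mitotic genes the order was the other way round: 8 of 11 (72.7%) held the CHR word and 3 (27.3%), Mki67, Cdk1 and Ccnb1, held the E2F word. Shares are of genes, and a gene with several promoters counted when any of them held the word. Of 27025 genes with a promoter, 10.9% held the E2F word, 20.2% the CHR word and 41.1% the CCAAT word. Of the 11510 genes tested that had a promoter, these shares were 18.5%, 14.4% and 42.7%. CCAAT words stood in the promoters of 8 of 11 S-phase and 10 of 11 mitotic genes. The same was seen in 2 longer lists of other genes with a promoter. The E2F word was held by 22 of 38 further replication genes (57.9%) and the CHR word by 30 of 44 further mitosis genes (68.2%). The promoters of Tyms and Birc5 held none of the 3 words in this window, and both genes had lower levels in GUCY2Chi cells in every mouse. No inhibitor promoter held the CHR word, and 1 of 4 inhibitor genes, Cdkn2c, had a promoter with the E2F word. The CCAAT word was held by 3 of the 4 (75.0%).

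**Figure D2:**
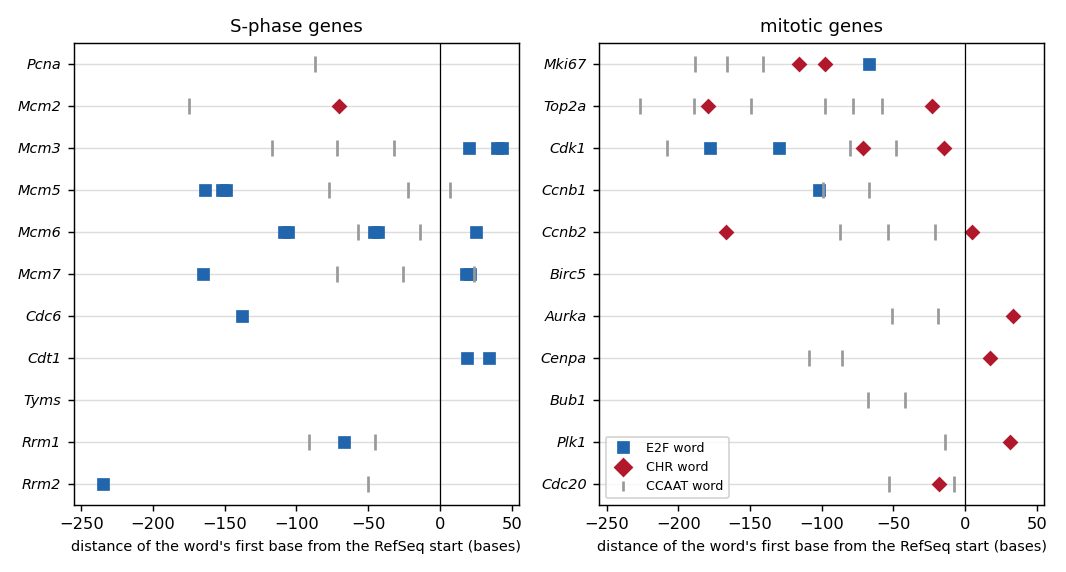
Position of each word's first base relative to the RefSeq start (horizontal axis, bases; vertical line at the start) in the promoters of 11 S-phase and 11 mitotic genes, for the first start where RefSeq gives 2. E2F words (squares) are found in 8 of the S-phase genes and CHR words (diamonds) in 8 of the mitotic genes.

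S-phase genes were lower in GUCY2Chi cells as a group. Of 13 genes, 10 passed the threshold, with a median log2 fold change of -1.36, and 9 of the 10 had groups that did not overlap. The largest difference of the 13 was in Mcm3 (ENSMUSG00000041859, chromosome 1 from 20802968 to 20820312 on GRCm38), a helicase subunit. It had 6.39, 4.46, 10.4, 5.47 and 9.07 cpm in GUCY2Chi cells of mice 2, 7, 12, 14 and 15. In GUCY2Cmed cells of the same mice it had 15.8, 44.96, 22.1, 24.9 and 25.9 cpm. Every GUCY2Chi value lay below every GUCY2Cmed value, and mouse 7 had both the lowest of the former and the highest of the latter. Its log2 fold change was -1.90 ± 0.32 (SE) with adjusted p = 0.00112, so that GUCY2Chi cells held 26.8% of the level of GUCY2Cmed cells.

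Cdt1, which loads the helicase onto origins, had 8.41, 5.79, 8.93, 5.09 and 11.9 cpm in GUCY2Chi cells against 26.7, 39.7, 20.02, 22.2 and 23.0 cpm in GUCY2Cmed cells, in the same order of mice. The groups did not overlap, and the log2 fold change was -1.71 ± 0.28 (SE) with adjusted p = 8.98e-04. Cdc6, its partner at the origin, was less abundant, with 2.63 ± 0.932 cpm (SD, n = 5) against 8.55 ± 3.23 cpm, and stood at -1.70 on the log2 scale (adjusted p = 0.00283). The other 5 subunits of the MCM helicase also passed, at -1.53 for Mcm5, -1.36 for Mcm4, -1.29 for Mcm6, -1.19 for Mcm2 and -1.05 for Mcm7, each with groups that did not overlap. Mcm6 was the most abundant of the 6 in reads, with 34.4 ± 9.86 cpm against 84.3 ± 27.3 cpm. Gins2, a subunit of the GINS complex that completes the active helicase, stood at -1.36, but its groups overlapped and its adjusted p was 0.0143.

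The list holds 3 genes of nucleotide supply, of which Rrm2 and Rrm1 passed. Rrm2, the small subunit of ribonucleotide reductase, whose amount rises in S phase, had 10.5, 7.42, 22.3, 7.17 and 18.4 cpm in GUCY2Chi cells against 21.5, 72.7, 40.6, 39.4 and 39.5 cpm. Its log2 fold change was -1.70 ± 0.39 (SE) with adjusted p = 0.00587, although the highest GUCY2Chi library, of mouse 12, lay above the lowest GUCY2Cmed library, of mouse 2. The large subunit Rrm1, which is made more evenly over the cycle, had 22.0 ± 5.06 cpm against 44.1 ± 10.1 cpm and stood at -1.0 (adjusted p = 0.00441). Tyms, thymidylate synthase, stood at -1.29 with an adjusted p of 0.01, at the threshold but not under it.

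Pcna, the sliding clamp of the replication fork, showed the smallest difference of the 13. It had 44.5, 28.5, 44.97, 41.8 and 51.9 cpm in GUCY2Chi cells and 48.2, 139, 70.7, 71.0 and 67.6 cpm in GUCY2Cmed cells. The groups overlapped, and the widest gap was in mouse 7. The log2 fold change was -0.90 ± 0.27 (SE) with adjusted p = 0.0205 and was -0.61 in the comparison with the GUCY2Cmed library of mouse 7 left out. Pcna also serves DNA repair outside S phase.

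With the mouse number as replicate block, edgeR called 2 of the 13 S-phase genes, against 4.96% of all genes tested, Mcm3 (adjusted p = 0.00906) and Cdt1 (adjusted p = 0.00748), and limma-voom called 4, against 8.8%, while the count of lower genes over the whole table was 779 in place of 1381 with edgeR. At a threshold of 0.05 the blocked edgeR fit called 11 of 13, against 16.9% lower over the table. Without 1 library the count was 4 to 10, beside 3.32% to 10.4% of all genes tested: it was 4 without the GUCY2Chi library of mouse 7, 5 without that of mouse 2 or the GUCY2Cmed library of mouse 15, and 6 without either library of mouse 14. Mcm3, Mcm5, Cdc6 and Cdt1 passed with each of the 10 libraries left out in turn.

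Mitotic genes were also lower in GUCY2Chi cells. Of 13 genes 12 passed, with a median log2 fold change of -1.64, and 11 of the 12 had groups that did not overlap. Top2a (ENSMUSG00000020914, chromosome 11 from 98992943 to 99024189), the topoisomerase that untangles sister chromatids, had 9.95, 3.98, 12.4, 5.70 and 10.6 cpm in GUCY2Chi cells of mice 2, 7, 12, 14 and 15. The GUCY2Cmed cells had 23.1, 39.4, 26.4, 32.3 and 26.6 cpm, so that every GUCY2Cmed library lay well above every GUCY2Chi library. The log2 fold change was -1.79 ± 0.31 (SE) with adjusted p = 0.00123.

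Plk1, a kinase that drives entry into mitosis and spindle assembly, had 9.35, 5.61, 11.1, 5.17 and 9.32 cpm against 19.7, 36.5, 23.3, 30.2 and 18.4 cpm. Its groups did not overlap, and its log2 fold change was -1.66 ± 0.28 (SE) with adjusted p = 0.00114. Birc5, which encodes survivin of the chromosomal passenger complex, was the most abundant mitotic gene in reads, with 21.0 ± 11.1 cpm against 74.9 ± 26.1 cpm, and stood at -1.83 on that scale (adjusted p = 0.00354). Aurkb, the kinase of the same complex, stood at -1.5 and Aurka, the kinase of spindle poles, at -1.63.

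The kinase Cdk1 and its cyclins were lower together. Cdk1 had 17.6, 6.27, 27.3, 9.40 and 21.2 cpm in GUCY2Chi cells and 30.99, 66.7, 51.7, 50.0 and 37.1 cpm in GUCY2Cmed cells, with a log2 fold change of -1.53 ± 0.37 (SE) with adjusted p = 0.00784. Its values did not overlap, but the GUCY2Chi library of mouse 12 came within reach of the lowest GUCY2Cmed library. Ccnb1 was at -1.66, Ccna2 at -1.65 and Ccnb2 at -1.53. Among genes of chromosome segregation, Cdc20, which activates the anaphase-promoting complex, was at -1.55, the checkpoint kinase gene Bub1 at -1.64 and Cenpa, the centromeric histone, at -1.29. All 6 passed the threshold, and Cenpa was the only one of them whose groups overlapped.

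The blocked edgeR fit called 0 mitotic genes at 0.01, against 4.96% of all genes tested lower. The lowest adjusted p was 0.0107, for Top2a. All 13 were lower in that fit with an unadjusted p under 0.05, as were 3404 of the 15703 genes tested. Blocked limma-voom called 3, against 8.8% of all genes tested lower, and at 0.05 the blocked edgeR fit called 13, against 16.9%. The count also moved with single libraries, from 12 down to 3 without the GUCY2Chi library of mouse 2 or the GUCY2Cmed library of mouse 12, to 4 without the GUCY2Chi library of mouse 7 or either library of mouse 14, to 5 without the GUCY2Cmed library of mouse 15, and to 6 without the GUCY2Cmed library of mouse 2 or of mouse 7. Top2a, Ccnb2 and Plk1 passed with each library left out. In these fits 3.32% to 10.4% of all genes tested were lower.

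**Figure D3:**
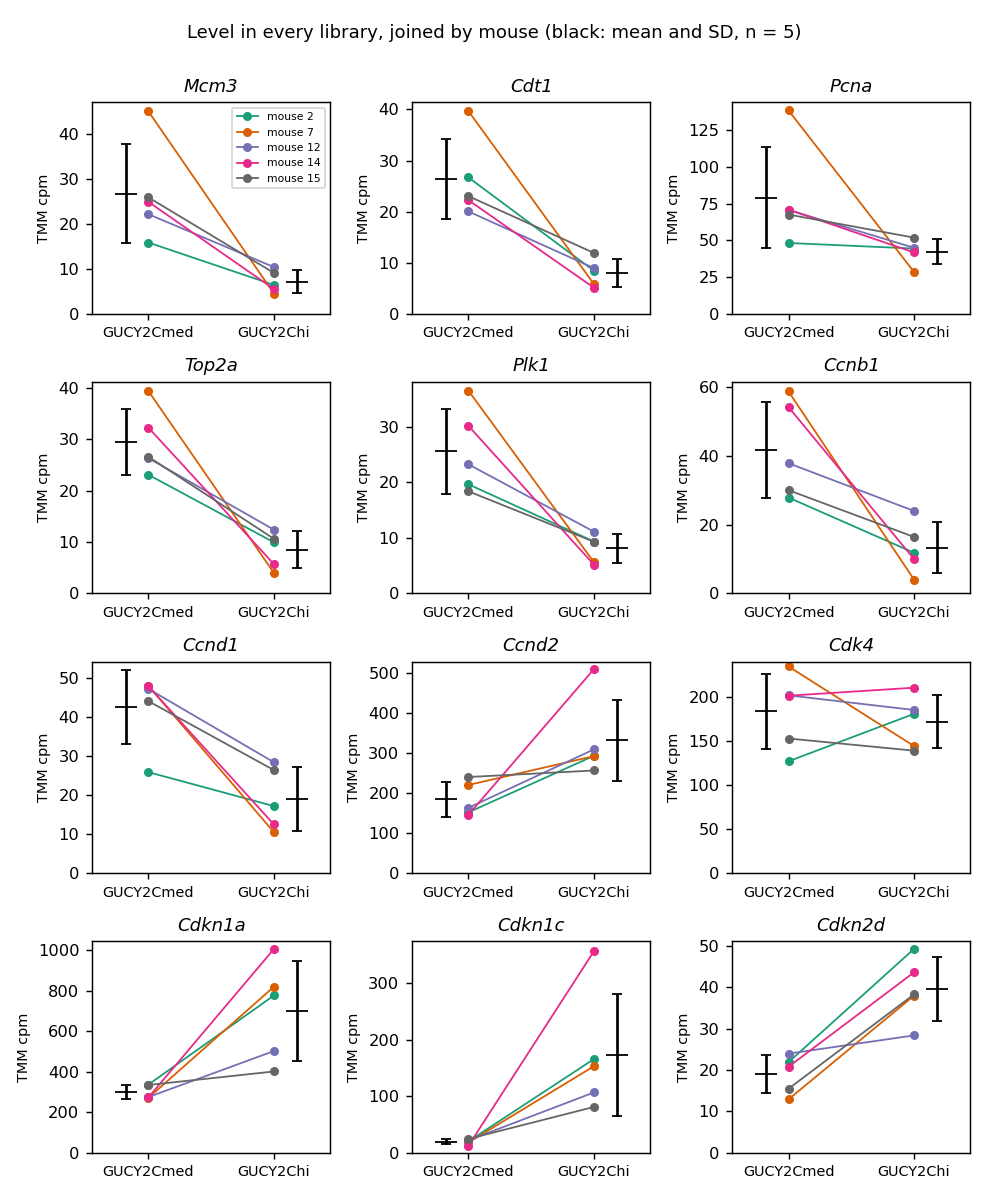
Level of 12 of the genes in each library (vertical axes, TMM-scaled cpm), with a line joining the libraries of each mouse and black bars for the mean and SD of 5 mice. Lines fall from GUCY2Cmed to GUCY2Chi in each mouse for Mcm3, Cdt1, Pcna, Top2a, Plk1, Ccnb1 and Ccnd1, rise in each mouse for Ccnd2, Cdkn1a, Cdkn1c and Cdkn2d, and cross for Cdk4.

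Mki67, the gene of the Ki-67 antigen and a customary mark of dividing cells, was the mitotic gene with the largest estimate and the only one that did not pass. It had 2.82, 1.99, 1.06, 0.617 and 0.252 cpm in GUCY2Chi cells of mice 2, 7, 12, 14 and 15, and 7.96, 17.1, 2.16, 3.00 and 0.514 cpm in GUCY2Cmed cells. These values rest on 4 to 42 reads in GUCY2Chi and 6 to 213 reads in GUCY2Cmed libraries. It was lower in GUCY2Chi cells of every mouse, but both groups ranged widely between mice, and the log2 fold change was -2.18 with a standard error of 0.85 (adjusted p = 0.0623). With 1 library left out it ranged from -2.57 to -1.32, the latter without the GUCY2Cmed library of mouse 7. With the mouse as replicate block it was -1.82 in edgeR (adjusted p = 0.0166) and -2.07 in limma-voom (adjusted p = 0.00678).

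Mki67 levels varied between mice in both groups, but the difference between mice did not pass a test. The values of mouse 15 rest on 4 and 6 reads in GUCY2Chi and GUCY2Cmed cells. The ratio of Mki67 to Top2a was 0.284, 0.500, 0.0854, 0.108 and 0.0237 in GUCY2Chi cells and 0.344, 0.434, 0.0820, 0.0930 and 0.0193 in GUCY2Cmed cells, in the same order of mice, so that the 2 libraries of a mouse lay close together and the mice lay far apart. Mice 2 and 7 were above mice 12, 14 and 15 in both groups for Mki67 and for no other member. This pattern was held by 4.94% of the genes tested, so 1 of 40 members is no more than that share. In a test of the difference between the 5 mice with the group in the model, chosen after these values were seen, Mki67 had the lowest p of the members (0.0034) and an adjusted p of 0.527. No gene of the 15703 passed that test in edgeR, while 740 had an unadjusted p under 0.05.

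**Figure D4:**
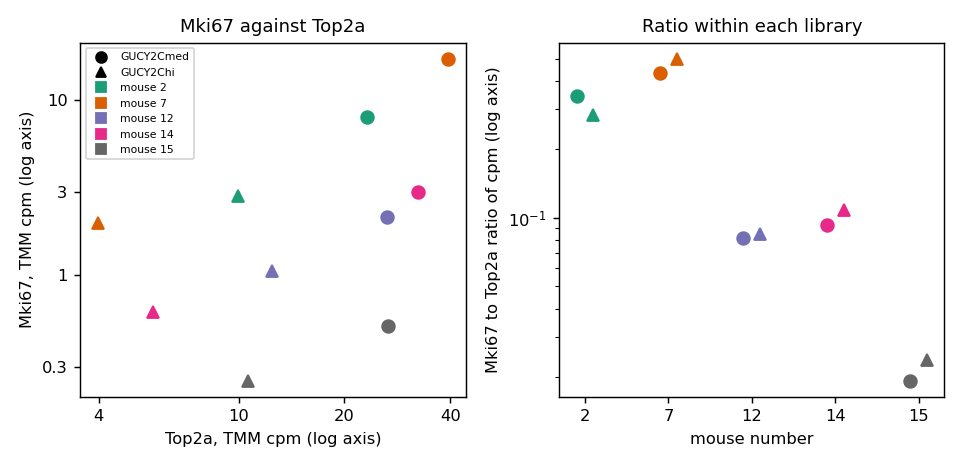
Mki67 against Top2a in each library (left, TMM-scaled cpm on log axes) and the ratio of Mki67 to Top2a by mouse (right, log axis), with circles for GUCY2Cmed and triangles for GUCY2Chi cells. The ratios of a mouse lie close together in both groups, from 0.500 and 0.434 in mouse 7 to 0.0237 and 0.0193 in mouse 15.

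S-phase and mitotic RNA did not differ by the same amount in each mouse. The summed level of the 13 S-phase genes in GUCY2Chi cells was 66.8%, 17.95%, 61.5%, 32.7% and 53.7% of that in GUCY2Cmed cells of mice 2, 7, 12, 14 and 15. For the 13 mitotic genes these shares were 46.3%, 11.1%, 55.2%, 17.6% and 56.5%. Mice 7 and 14 thus showed the largest differences for both groups of genes, and the mitotic share was the smaller in 4 of 5 mice, mouse 15 being the exception. The ratio of the S-phase to the mitotic sum was 1.54, 2.05, 1.22, 1.89 and 1.43 in GUCY2Chi cells and 1.07, 1.26, 1.10, 1.02 and 1.504 in GUCY2Cmed cells.

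The libraries of mouse 7 stood at the ends of the range. Its GUCY2Cmed library was the highest of its group in 25 of the 26 S-phase and mitotic genes, against 26.6% of all genes tested, and its GUCY2Chi library was the lowest in 18 of 26, against 21.4%. Without both libraries of mouse 7, a choice made after these values were seen, the test called 2 S-phase genes (Mcm3 and Cdt1) and 3 mitotic genes (Top2a, Ccnb2 and Plk1), while 334 genes of the whole table (2.19%) were lower and 9.96% higher. The 26 genes were below 0 in each of the 24 other settings tried in which they could be tested. Settings that change only the threshold repeat the values of another fit and could not alter a sign.

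Markers of other cells also differed between the mice, and some of them moved with these sums. The summed level of 10 stem cell genes in GUCY2Chi cells was 122%, 26.5%, 54.99%, 46.5% and 69.5% of that in GUCY2Cmed cells, from 343 to 1128 cpm against 925 to 1292 cpm. Of these 10 genes, Rgmb passed and was higher (0.78), while Lgr5 (-0.81, adjusted p = 0.102) and Olfm4 (-0.86, adjusted p = 0.0748) did not pass. Enterocyte genes made up 5.39%, 5.40%, 45.5%, 6.001% and 42.9% of their sum in GUCY2Cmed cells. The GUCY2Chi libraries of mice 12 and 15 thus had the most of both enterocyte and mitotic RNA relative to their partners. The S-phase share did not follow the enterocyte share. It was highest in mouse 2 (66.8%) and lowest in mouse 7 (17.95%), whose enterocyte shares were nearly equal. The sum of 6 Paneth cell genes was 699.8%, 54.4%, 102.2%, 268.4% and 51.74% and that of 7 goblet cell genes 373.6%, 116.5%, 165.3%, 50.58% and 71.57% of the GUCY2Cmed level, and these did not follow the order of the S-phase or mitotic shares. Without the GUCY2Chi libraries of mice 12 and 15, 14.4% of all genes tested were lower and 17.9% higher. The counts of lower genes were then 12 S-phase and 12 mitotic genes, and the medians were -1.72 and -2.12.

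Lymphocytes can also divide. No antibody against lymphocytes was used in the sort, and whether the gate on fluorescence removed them was not tested. The summed level of 10 T cell genes was 281 and 240 cpm in GUCY2Chi cells of mice 12 and 15 and 31.1 to 69.9 cpm in the other 3, and was 34.1 to 187 cpm in GUCY2Cmed cells. Of 9 T cell genes tested, 9 were above 0, from 0.05 for Ptprc to 1.10 for Lck, whose adjusted p of 0.107 was the lowest. Markers of mesenchyme and endothelium summed to at most 8.44 cpm in GUCY2Chi and 1.01 cpm in GUCY2Cmed cells. Of the 8 genes of that list 2 could be tested, Col1a2 (adjusted p = 0.00173) and Pecam1 (adjusted p = 0.00546), and both were higher in GUCY2Chi cells. Both entered the test only through GUCY2Chi libraries, so the filter itself favoured this direction. In GUCY2Cmed libraries Col1a2 had 0 cpm and Pecam1 at most 0.225 cpm. Markers of myeloid and B cells summed to at most 9.35 cpm in GUCY2Chi and 6.23 cpm in GUCY2Cmed cells. The part of other cell types in the difference of the cell cycle genes was not tested.

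**Figure D5:**
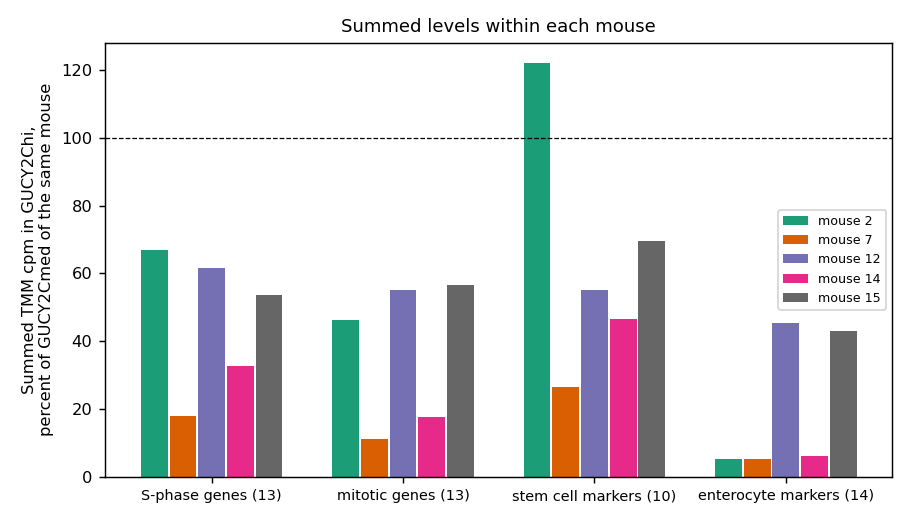
Summed TMM-scaled cpm in GUCY2Chi cells as a percent of that in GUCY2Cmed cells of the same mouse (vertical axis, starting at 0; dashed line at equal levels), for 13 S-phase genes, 13 mitotic genes, 10 stem cell and 14 enterocyte markers. S-phase and mitotic sums stay below the line in all 5 mice, down to 17.95% and 11.1% in mouse 7, while the stem cell sum of mouse 2 reaches 122%.

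Regulators of G1 and of the G1/S step were mostly short of the threshold. Of 9 genes, 1 was lower, Ccnd1, which is near the share of 8.79% lower among all genes tested. The median log2 fold change was -0.86. Ccnd1, which encodes cyclin D1, had 17.2, 10.5, 28.5, 12.5 and 26.5 cpm in GUCY2Chi cells and 25.9, 48.1, 47.3, 48.0 and 44.2 cpm in GUCY2Cmed cells. The groups overlapped through the GUCY2Cmed library of mouse 2. The log2 fold change was -1.17 ± 0.30 (SE) with adjusted p = 0.0099, and the call was lost with the mouse as replicate block (adjusted p = 0.0187) and without any 1 library other than the GUCY2Chi libraries of mice 12 and 15, with adjusted p up to 0.0361.

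Ccnd2, which encodes cyclin D2, went the other way. It had 293, 292, 309, 509.7 and 256 cpm in GUCY2Chi cells and 152, 220.3, 163, 146 and 240.1 cpm in GUCY2Cmed cells. Every GUCY2Chi library lay above every GUCY2Cmed library, and the log2 fold change of 0.85 ± 0.23 (SE) had an adjusted p of 0.0144. The ratio of Ccnd2 to Ccnd1 was 17.0, 27.9, 10.9, 40.8 and 9.69 in GUCY2Chi cells and 5.86, 4.58, 3.45, 3.04 and 5.44 in GUCY2Cmed cells. Its geometric mean was thus 4.22-fold higher, with no overlap between the groups; an exact two-sided permutation test gave p = 0.00794 over libraries and 0.0625 with the mice paired, each the smallest that 5 mice allow, for a ratio that was formed after the values of both genes were seen. Ccnd3, the third D-type cyclin gene and a member of a wider list, was higher, with 86.4 ± 20.6 cpm against 38.2 ± 6.15 cpm and a log2 fold change of 1.18 (adjusted p = 0.00123, or 0.0116 with the block).

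The kinase partners of these cyclins showed smaller or less certain differences. Cdk4 had 172 ± 30.0 cpm (SD, n = 5) in GUCY2Chi and 184 ± 43.1 cpm in GUCY2Cmed cells, was lower in 3 of 5 mice, and had a difference of -0.09 (adjusted p = 0.769) whose sign turned with scaling by library size alone (0.17). Cdk6 stood at -0.57 (adjusted p = 0.229). Cdk2, the partner of cyclin E, had 11.97, 0.663, 4.47, 3.70 and 3.97 cpm against 16.7, 17.98, 12.1, 12.01 and 8.99 cpm, and its log2 fold change of -1.45 had a standard error of 0.54 (adjusted p = 0.0524). The GUCY2Chi libraries of mice 2 and 7 lay at opposite ends, with 178 and 11 reads, and without that of mouse 2 the value was -2.03 (adjusted p = 0.00981).

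The cyclin E genes were lower in estimate, with -1.34 for Ccne1 (adjusted p = 0.0275) and -0.86 for Ccne2 (adjusted p = 0.0628). E2f1, itself a target of E2F in dividing cells, had 5.34 ± 1.11 cpm against 7.19 ± 2.79 cpm, was lower in 2 of 5 mice, and stood at -0.43 (adjusted p = 0.285). Myc, a growth regulator and target of Wnt signaling in crypts, had 35.5 cpm in GUCY2Chi cells of mouse 2 and 16.8 to 19.0 cpm in the other 4, against 31.3 to 49.9 cpm in GUCY2Cmed cells. Its log2 fold change was -0.89 (adjusted p = 0.0138), and -1.10 (adjusted p = 0.00208) without the GUCY2Chi library of mouse 2.

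The 5 inhibitors of cyclin-dependent kinases among the members were mostly higher in GUCY2Chi cells. Of these, 3 passed, where 13.9% of all genes tested were higher. In every mouse 4 of the 5 were higher, as were 24.2% of all genes tested. The groups of the 3 that passed did not overlap, which held upward for 16.7% of all genes. Cdkn1c (ENSMUSG00000037664, chromosome 7 from 143458339 to 143461050), an imprinted gene expressed from the maternal copy, showed the largest difference of the 40 members. It had 166, 153, 107, 356.5 and 81.1 cpm in GUCY2Chi cells of mice 2, 7, 12, 14 and 15, and 20.3, 18.3, 22.1, 12.7 and 24.7 cpm in GUCY2Cmed cells. The lowest GUCY2Chi library, of mouse 15, was still far above the highest GUCY2Cmed library, of the same mouse. The log2 fold change was 3.14 ± 0.39 (SE) with adjusted p = 1.62e-04, and the call held with the block (adjusted p = 0.00518) and with each library left out, from 2.70 to 3.33.

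Cdkn1a, a target of p53, was the most abundant member, with 777, 820.0, 502, 1006 and 401.5 cpm in GUCY2Chi and 337, 272, 275, 274 and 335 cpm in GUCY2Cmed cells. The groups did not overlap, and the log2 fold change was 1.23 ± 0.26 (SE) with adjusted p = 0.00354, or 0.0174 with the block. Cdkn2d of the INK4 family had 49.3, 38.0, 28.4, 43.6 and 38.3 cpm against 21.9, 12.9, 24.0, 20.8 and 15.5 cpm. Its groups did not overlap either, and it stood at 1.05 ± 0.21 (SE) with adjusted p = 0.00302, or 0.011 with the block. The GUCY2Chi library of mouse 14 had the most Cdkn1c and Cdkn1a, and that of mouse 15 the least of both.

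Cdkn1b was higher in 5 of 5 mice, with 14.3, 11.1, 10.6, 22.1 and 7.75 cpm against 5.90, 4.98, 8.21, 5.63 and 5.99 cpm. Its groups overlapped by the GUCY2Chi library of mouse 15 and the GUCY2Cmed library of mouse 12, and its log2 fold change of 1.10 had an adjusted p of 0.0107. Cdkn2c was the inhibitor among the members that pointed down, at -0.59 (adjusted p = 0.121), with 6.14 ± 2.13 cpm against 9.23 ± 1.99 cpm. Cdkn2b, an INK4 gene of a wider list and not a member, was lower in GUCY2Chi cells and passed. It had 73.2 cpm against 166 cpm and a log2 fold change of -1.18 ± 0.15 (SE) with adjusted p = 2.16e-04. With the block, edgeR called 1 of the 5 member inhibitors at 0.01, Cdkn1c, and 4 at 0.05, when 8.24% and 18.3% of all genes tested were higher. The summed level of the 5 in GUCY2Chi cells was 259%, 320%, 194%, 445% and 137% of that in GUCY2Cmed cells of mice 2, 7, 12, 14 and 15.

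Levels of different genes can be compared only per length, and for this the deposited FPKM values were used, which carry no TMM scaling. Cdkn1a was the highest of the 40 in both groups, with 547.5 ± 190 FPKM (SD, n = 5) in GUCY2Chi and 192 ± 24.8 FPKM in GUCY2Cmed cells. It was followed in GUCY2Chi cells by Ccnd2 (220.5 ± 51.5 FPKM), Cdk4 (175 ± 15.6) and Cdkn1c (166 ± 92.0), and in GUCY2Cmed cells by Cdk4 (156 ± 38.7), Ccnd2 (102 ± 20.6) and Pcna (80.2 ± 37.0). The SDs of Ccnd2, Cdk4 and Cdkn1c in GUCY2Chi cells span each other, so the order among these 3 is not resolved. Cdkn1c ranked 4 of 40 in GUCY2Chi and 26 of 40 in GUCY2Cmed cells, and Cdkn2d ranked 6 and 27. Among S-phase genes Pcna was the highest in both groups and Cdc6 the lowest, with 0.909 ± 0.290 FPKM in GUCY2Chi cells. Among mitotic genes Cdc20 was the highest (19.1 ± 8.08 against 46.9 ± 17.1 FPKM), and Mki67 ranked last of all 40 in both groups, with 0.285 ± 0.231 against 1.09 ± 1.201 FPKM. Dividing cpm by the gene length of the table instead kept Cdkn1a first, and put Mki67 last in GUCY2Chi cells and next to last in GUCY2Cmed cells. Other ranks moved: Cdkn1c was then 2 in GUCY2Chi and 18 in GUCY2Cmed cells, Cdkn2d 5 and 12, and Ccnd2 4 and 7, so these ranks depend on the length used.

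Wider lists of the same pathways, which hold none of the 40 members, pointed the same way. Of 45 further replication genes tested, 11 were lower in GUCY2Chi cells and 38 were below 0, with a median of -0.98. Of all genes tested 8.79% were lower and 45.4% were below 0. The lowest that passed were the chromatin assembly subunit Chaf1a (-1.79, adjusted p = 0.00309), thymidine kinase Tk1 (-1.77, adjusted p = 0.00303) and Uhrf1 (-1.66, adjusted p = 0.00234), which guides maintenance of DNA methylation. The 7 replication genes above 0 included Orc2, Orc3, Orc4 and Orc5 of the origin recognition complex, between 0.08 and 0.33, none of which passed. Of 54 further mitosis genes 31 were lower and 51 were below 0, against 8.79% and 45.4% of all genes tested, with a median of -1.50. The lowest that passed were Kif4 (-2.22, adjusted p = 0.00406), a chromosome motor, Prc1 (-1.96, adjusted p = 4.89e-04), which bundles the midzone spindle, and Melk (-1.93, adjusted p = 0.00162), a mitotic kinase.

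Retinoblastoma, E2F and inhibitor family genes were more mixed: of 32 tested, 7 were lower and 1, Ccnd3, was higher, with a median of -0.26. Of all genes tested 8.79% were lower and 13.9% were higher. The lowest that passed were E2f8 (-2.40, adjusted p = 0.00219), an E2F repressor that is itself made in S phase, the phosphatase gene Cdkn3 (-1.74, adjusted p = 0.00653), and Fbxo5 (-1.45, adjusted p = 0.00795), an inhibitor of the anaphase-promoting complex. With the block in edgeR these 3 lists had 2 of 45, 4 of 54 and 1 of 32 genes lower, shares that lie near the 4.96% of all genes tested. With 1 library left out, 3.32% to 10.4% of all genes tested were lower. In these fits 4 to 12 replication, 11 to 29 mitosis and 3 to 8 retinoblastoma, E2F and inhibitor family genes were lower. Without the GUCY2Chi library of mouse 7 they were 4, 11 and 3, and counts fell by more than 1.5 times without any 1 library other than the GUCY2Chi libraries of mice 12 and 15 and, for replication genes, the GUCY2Cmed library of mouse 2.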

How the data were processed

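The sequencing provider prepared paired-end libraries, aligned the reads with STAR and counted them per gene. The read counts, as deposited, are raw whole numbers per gene and library; the FPKM values, as deposited by the authors, divide counts by length and depth, and for the 40 genes the length they imply was a median 0.428 of the length in the table. The labels name mm9, but the positions in the table overlap RefSeq's GRCm38 genes of the same symbol for 40 of 40 members and NCBIM37 (mm9) genes for 3 of 40, so positions are on GRCm38. Whether counting used strand is not given in the sources used here.

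Counts were analysed with edgeR 4.0.16 in R 4.3.3 (TMM, quasi-likelihood test, no mouse term), after a check on simulated data, and with limma 3.58.1 and DESeq2 1.42.0 as alternatives. Summaries used Python 3.11.15 (pandas 2.3.3, numpy 2.4.6) and the figures matplotlib 3.10.9. The submitters' processing notes name limma 3.40.6 and edgeR 3.26.8, whose comparison columns, fold changes and p-values, were not used here, nor were 10 further per-sample columns of normalized values.

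Libraries of 1 number come from the same mouse, which pairs them by design. Their deviations from the group means correlated by -0.0744, -0.173, 0.27, -0.101 and 0.0505 in mice 2, 7, 12, 14 and 15. The mouse number was therefore also used as replicate block. The p-values of the main fit, which has no mouse term, measure the spread within each group of 5 libraries, 1 from each litter-matched mouse. They take the 10 libraries as independent. Those of the blocked fits measure the spread of the differences within the 5 mice.

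The members and lists were chosen with earlier results of these data known. All 40 members are named. From each wider list the 3 lowest and 3 highest genes among those with adjusted p under 0.01 are named, and marker genes where they describe the sorted cells. Orc2, Orc3, Orc4, Orc5 and Cdkn2b were named after their values were seen.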

Additional observations from a re-analysis of the deposited data

Results flagged for a closer look

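The level of each of the 40 genes was searched in each group of 5 libraries for a highest or lowest library that stood apart from its group by Dixon's criterion. Of 80 such groups 5 were found, and chance flags about 1 in 20, or 4 of 80. Pcna had 139 cpm in the GUCY2Cmed library of mouse 7, where the next highest had 71.0 cpm. Cdk6 had 1.93 cpm in the GUCY2Chi library of mouse 7, and the next lowest had 5.55 cpm. Ccnd1 had 25.9 cpm in the GUCY2Cmed library of mouse 2, below 44.2 cpm in the next. Ccnd2 had 509.7 cpm in the GUCY2Chi library of mouse 14, above 309 cpm in the next. Myc had 35.5 cpm in the GUCY2Chi library of mouse 2, above 19.0 cpm in the next.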

How the results depend on the processing

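S-phase, mitotic and inhibitor genes kept the sign of their log2 fold changes in the 24 settings tried, wherever they could be tested. Cdk4 turned to 0.17 with library size alone, 0.0295 with at least 10 counts in every library, 0.00986 without the GUCY2Cmed library of mouse 7 and 0.0831 without both libraries of mouse 7, and ranged from -0.17 to 0.00986 with 1 library left out. Library size alone moved the median of all genes from 0.09 to 0.39, and no filter moved it to 0.21, so changes under these settings are relative to those values. Here replication and mitosis genes are those of the wider lists, and the E2F list is that of retinoblastoma, E2F and inhibitor families. Causes of the moves were not tested.

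Mouse as replicate block in edgeR gave 779 lower and 1294 higher of all genes, 2 S-phase, 0 mitotic, 0 G1, 2 replication, 4 mitosis and 1 E2F list genes lower, and 1 inhibitor and 0 E2F list genes higher. In that fit 5 G1 genes were lower with an unadjusted p under 0.05, as were 3404 of the 15703 genes tested. Blocked limma-voom gave 1382 lower and 1824 higher of all genes. Lower were 4 S-phase, 3 mitotic, 0 G1, 4 replication and 10 mitosis genes, and 2 E2F list genes were higher. The block in edgeR at 0.05, chosen after seeing the data, gave 2646 lower and 2868 higher of all genes. Lower were 3 G1 and 19 replication genes, and higher were 1 G1 and 4 E2F list genes.

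Library size alone gave 557 lower and 2910 higher of all genes. Lower were 4 S-phase, 4 mitotic, 0 G1, 4 replication, 10 mitosis and 3 E2F list genes. Higher were 1 G1, 1 replication and 3 E2F list genes, and the E2F list median was 0.0208. Under limma-voom 2 G1 genes were lower, where 11.4% of all genes tested were lower. DESeq2 gave 2235 lower and 2960 higher of all genes. Lower were 3 G1 and 19 replication genes, and higher were 1 G1 and 3 E2F list genes. RLE factors, upper-quartile factors, omission of the 50 most abundant genes, no filter and at least 10 counts each left 0 G1 genes lower. In them 3.96% to 9.05% of all genes tested were lower. Of these 5 settings, upper-quartile factors and at least 10 counts gave 1 G1 gene higher, and all but no filter gave 2 E2F list genes higher. Of all genes tested 7.27% were higher with no filter and 14.1% to 14.8% in the rest of the 5. At least 10 counts gave an E2F list median of -0.116. A threshold of 0.05 gave 2767 lower and 3367 higher of all genes, 3 G1, 24 replication and 50 mitosis genes lower, and 1 G1 and 3 E2F list genes higher.

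With 1 library left out, genes lower ranged over 4 to 10 S-phase, 3 to 12 mitotic, 0 to 2 G1, 4 to 12 replication, 11 to 29 mitosis, 3 to 8 E2F list and 512 to 1609 of all genes. Genes higher ranged over 0 to 1 G1, 1 to 3 E2F list, 2 to 4 inhibitor and 1636 to 2534 of all genes, and the median of all genes over 0.0604 to 0.17. Without both libraries of mouse 7, chosen after seeing the data, 334 of all genes were lower and 1518 higher. Lower were 2 S-phase, 3 mitotic, 0 G1, 1 replication, 3 mitosis and 2 E2F list genes, and 2 E2F list genes were higher. Without the GUCY2Chi libraries of mice 12 and 15, also chosen afterwards, 2186 of all genes were lower and 2711 higher. In that fit 2 G1 genes were lower, 1 G1 and 4 E2F list genes were higher, and the E2F list median was -0.15. The lowest counts in 1 GUCY2Chi library were 4 reads for Mki67, 11 for Cdk2, 14 for Bub1 and 22 each for Cdc6 and Ccne1.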
